A study of Homo sapiens with 6 samples.

Results

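The upper glycolysis isoenzymes were the 10 genes HK1, HK2, HKDC1, ADPGK, GPI, PFKL, PFKM, PFKP, PFKFB3 and PFKFB4, taken by symbol from 56638 gene symbols in the RNA-seq count tables. All 10 were found, and all 10 passed the minimum of 5 total counts in at least 1 condition, as did 22452 symbols in all. The RNA was from 3 WT and 3 METTL3-KO samples of HCT116, an established line of human colorectal carcinoma cells. The labels give the WT cells as wild type and the METTL3-KO cells as a CRISPR/Cas9 knockout of METTL3, the methyltransferase that writes most N6-methyladenosine (m6A) on mRNA. Per the methods, the knockout came from a lentiviral vector with puromycin selection and was grown out as a monoclonal line. If the samples are that line, the knockout and the properties of 1 clone cannot be told apart. No added agent or time course is given for either group, and both were grown in the same medium with serum. Nothing in the labels says that the 3 samples of a group were separate cultures, so p-values measure the spread between these samples, which may be technical.

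Glycolysis begins when a hexokinase traps glucose in the cell as glucose 6-phosphate, which GPI turns into fructose 6-phosphate and phosphofructokinase 1 commits to breakdown as fructose 1,6-bisphosphate. HK1 is the widely expressed hexokinase, HK2 the form typical of muscle, fat and many tumours, and HKDC1 a more recently described member of the same family, while ADPGK spends ADP in place of ATP and belongs to another protein fold. Phosphofructokinase 1 is built from liver (PFKL), muscle (PFKM) and platelet (PFKP) subunits, and its strongest activator, fructose 2,6-bisphosphate, is made and broken down by bifunctional PFKFB enzymes such as PFKFB3 and PFKFB4. The study measured these cells to find transcripts that depend on METTL3. It listed HK2 and ADPGK (printed there as ADOGK) among its candidates, on the basis of these same RNA samples and of sequencing of m6A-carrying RNA. HK2 was taken forward after further assays, among them real-time PCR in several cell lines, PCR on m6A-carrying RNA and lactate production. ADPGK was not among the genes kept after real-time PCR. The direction of HK2 and ADPGK is therefore not independent evidence here.

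METTL3 methylates adenosines in a short sequence context, of which GGAC is a common form, and m6A is known to gather near stop codons. The windows below show, for each gene, the GGAC nearest the stop codon of its MANE Select transcript (1 reference transcript per gene), in capitals with 10 bases on either side, in the direction of the transcript, as an orientation to the sequences measured and not as mapped m6A sites. They were read from the GRCh37 genome with a GENCODE annotation on that build.
HK1: ggagtggacgGGACactctacaag
HK2: ccgtgaggctGGACagcgatagaa
HKDC1: ccctgggattGGACctgatgcatc
ADPGK: ttcagccgaaGGACtcttctattc
GPI: gcatgttcctGGACaccacccaga
PFKL: ccctgagcatGGACaagggcttct
PFKM: agattgacttGGACacttcagacc
PFKP: atgacgtgtcGGACtcaggccagc
PFKFB3: gcagctgcctGGACaaaacatgaa
PFKFB4: ctcagaacgtGGACatctcaagac
Distances run from the A of the motif to the first base of the stop codon. In HK2 the motif lies in the last codons, 7 bases before the stop codon on chr2:75118047-75118070 (plus strand). In HKDC1 it lies in the 3′UTR, 19 bases past that point, on chr10:71026518-71026541 (plus strand), and in GPI, also in the 3′UTR, 87 bases past it on chr19:34891014-34891037 (plus strand). The ADPGK window on chr15:73044704-73044727 (minus strand) and the PFKL window on chr21:45746720-45746743 (plus strand) are coding and lie 31 and 11 bases before the stop codon. The windows of PFKFB3 and PFKFB4 cross an exon junction, so their bases are split over chr10:6268313-6274865 (plus strand) and chr3:48557221-48559423 (minus strand). The HK1, PFKM and PFKP windows are coding, on chr10:71158550-71158573, chr12:48539415-48539438 and chr10:3178719-3178742 (all plus strand). The largest of these distances, 165 bases in HK1, was taken as a limit, so all of these genes lie within it by construction. Of the 18663 genes with a MANE Select transcript 72.3% carried the motif within that limit. Because the limit was set by the genes shown, this share is no test of whether they differ from other genes.

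Each sample held between 20936091 and 30142144 counts on genes, and values below are given as CPM, counts scaled to the TMM-adjusted library total, unless stated otherwise. METTL3 itself fell from 841, 682 and 623 counts in WT samples to 219, 169 and 162 in METTL3-KO samples, which left 0.243 of the WT level (log2 fold change -2.04, SE 0.0906, n = 3 each, adjusted p = 1.59e-07 by the quasi-likelihood method of edgeR, adjusted after Benjamini and Hochberg). The deposited tables carry the names NC and SiM3 in place of WT and METTL3-KO. The labels were followed, but the sources used here do not settle whether the second name stands for a knockdown by siRNA in place of the knockout. By the same edgeR test, with an adjusted p under 0.05, 2959 genes were called lower and 2986 were called higher. Replicate 3 stood apart in each group, where the chi-square per gene of WT replicate 3 was 23.1 and 23.0 to its fellow WT samples and that of METTL3-KO replicate 3 was 11.2 and 8.32 to its own group, while replicates 1 and 2 gave 2.58 in WT and 2.34 in METTL3-KO cells (counting noise alone gives values near 1). Of the epithelial and intestinal markers, EPCAM, KRT8, KRT18, CDH1, VIL1 and KRT20 were at 218 CPM or more in every sample, and CDX1 and CDX2 between 2.34 and 8.85 CPM. In edgeR's test 4 of the 8 rose, each with all METTL3-KO samples above all WT samples. KRT20 went from 252 ± 33.9 to 713 ± 17.6 CPM (SD, n = 3 each), and VIL1, KRT8 and CDH1 rose by 0.62, 0.36 and 0.23 on the log2 scale. The other markers were not called. CDX1, KRT18 and EPCAM had log2 fold changes of 0.35, 0.18 and 0.01, and CDX2 lay in the other direction at -0.19. Among all tested genes 13.3% were called higher, and 20.2% had all METTL3-KO samples above all WT samples. Among markers of other cell types PECAM1, COL1A2 and ALB had no count in any sample, PTPRC had at most 1, and COL1A1 stood at 4.69 to 6.05 CPM in WT and 6.24 to 7.87 CPM in METTL3-KO cells. The part of these differences in the results below was not tested.

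Of the 10 upper glycolysis genes, 4 fell in METTL3-KO cells, 4 rose and 2 did not pass the test. HK2, ADPGK, GPI and PFKFB4 fell, and HKDC1, PFKL, PFKP and PFKFB3 rose, at an adjusted p under 0.05 in the quasi-likelihood test of edgeR, adjusted after Benjamini and Hochberg over all tested genes. Together 8 of the 10 were called. Among all tested genes 13.2% were called lower and 13.3% higher, 26.5% in either direction, and where the mean log2 CPM was 3 or more, a level that every one of the 10 genes exceeded, 40.9% of 10378 genes were called in either direction. The median log2 fold change of the 10 genes was 0.04, against -0.02 over all tested genes. All 3 METTL3-KO samples were lower than any WT sample for 4 of the 10 genes, as for 20.7% of all tested genes, and higher than any WT sample for 5, as for 20.2%. Only PFKM overlapped between the groups. The plots of CPM in each sample and of the fitted changes show this split, with genes called in opposite directions among the hexokinases and within the PFKFB pair. In bulk RNA a lower level in every cell and a smaller fraction of cells that express a gene cannot be told apart.

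**Figure D1:**
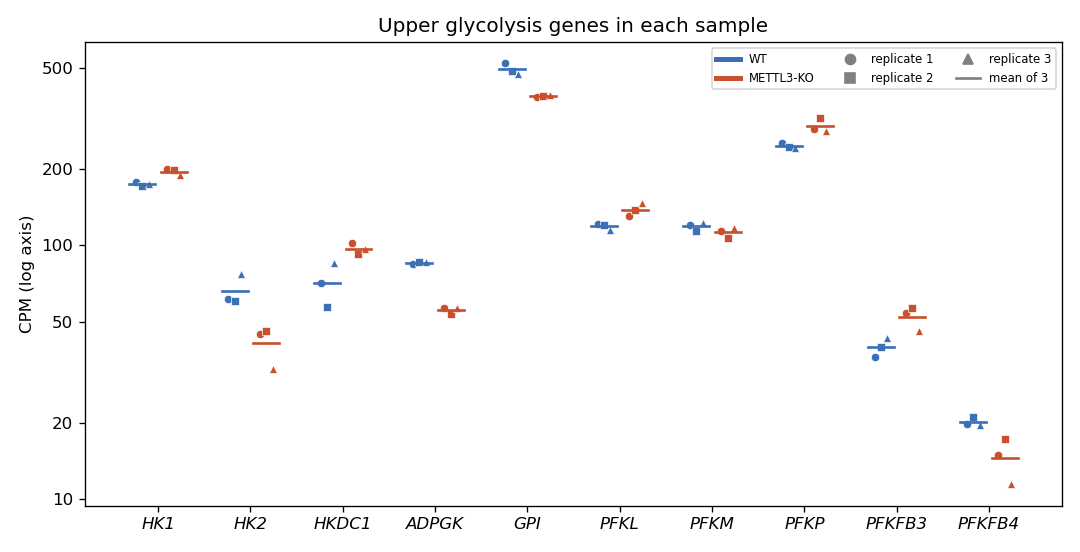
CPM (log axis) of the 10 upper glycolysis genes in the 3 WT (blue) and 3 METTL3-KO (red) samples, with the replicate as the symbol and the group mean as a line. HK2, ADPGK, GPI and PFKFB4 lie lower in every METTL3-KO sample, HK1, HKDC1, PFKL, PFKP and PFKFB3 lie higher, and PFKM overlaps.

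**Figure D2:**
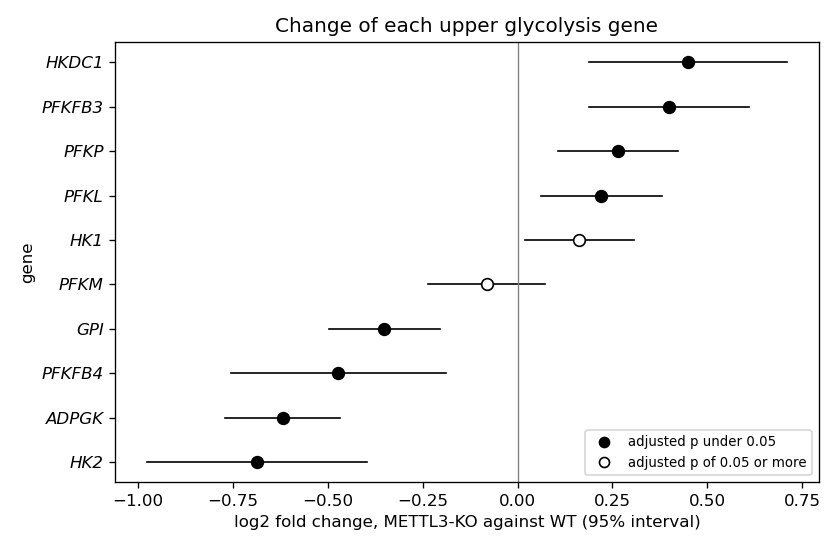
Log2 fold change of METTL3-KO against WT for each gene with its 95% interval (n = 3 each), sorted by value. Filled points have an adjusted p under 0.05; the intervals themselves are not adjusted, so that of HK1 leaves out 0 while its adjusted p is 0.0918.

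Among the enzymes that phosphorylate glucose, HK2 and ADPGK fell while HKDC1 rose. HK2 (chromosome 2, 75061254 to 75120486 on the plus strand of GRCh37) stood at 61.2, 60.4 and 76.7 CPM in WT samples and at 44.7, 46.0 and 32.4 CPM in METTL3-KO samples. The highest WT and the lowest METTL3-KO value both belonged to replicate 3, and the groups did not overlap. The METTL3-KO level was 0.622 of the WT level (95% interval 0.509 to 0.760), a log2 fold change of -0.69 (edgeR adjusted p = 0.00234, SE 0.133). Replicate 3 lay 0.34 above the other WT samples and 0.48 below the other METTL3-KO samples in log2 CPM. With replicate 3 of both groups left out HK2 still passed, with a log2 fold change of -0.43. That fit called more genes in all, 4823 lower and 4555 higher, against 2959 and 2986 with every sample.

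ADPGK (chromosome 15, 73043635 to 73078187, minus strand) gave 84.2, 86.2 and 85.5 CPM in WT and 56.6, 53.4 and 56.6 CPM in METTL3-KO samples. The highest sample of a group exceeded the lowest by a factor of 1.02 in WT and 1.06 in METTL3-KO cells, replicate 3 included. Its log2 fold change was -0.62 (edgeR adjusted p = 6.20e-05, SE 0.0697), the smallest p among the 10 genes, and it stayed between -0.64 and -0.59 and passed in all 14 alternatives. The antisense gene ADPGK-AS1 shares 540 bases of exon with ADPGK, and read pairs that touch both genes would have been left out if strand was not used in counting.

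HKDC1 (chromosome 10, 70980088 to 71027308, plus strand) stood at 70.8, 57.2 and 85.2 CPM in WT samples and at 102, 92.4 and 96.6 CPM in METTL3-KO samples. The WT samples differed among themselves by a factor of 1.49, the METTL3-KO samples by 1.10. The METTL3-KO level was 1.36 times the WT level (95% interval 1.14 to 1.63), a log2 fold change of 0.45 (edgeR adjusted p = 0.0152, SE 0.119). HKDC1 passed in 13 of 14 alternatives, and its adjusted p was 0.0672 without METTL3-KO replicate 1.

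HK1 (chromosome 10, 71029740 to 71161640, plus strand) had the highest level per kb of the 4 enzymes and gave 177, 171 and 175 CPM in WT and 199, 198 and 188 CPM in METTL3-KO samples. Every METTL3-KO sample was above every WT sample, by less than the test required (log2 fold change 0.16, 95% interval 0.02 to 0.31, edgeR adjusted p = 0.0918, SE 0.0660). It passed in 3 of 14 alternatives, with an adjusted p of 0.0442 without WT replicate 3, of 0.0410 with an offset for transcript length and GC content, and of 0.000162 with replicate 3 of both groups left out. The last of these fits called 4823 genes lower and 4555 higher. HK1 starts 2432 bases after the end of HKDC1 on the same strand. With HKDC1 set aside, 51 other genes start within 5 Mb of HK1 and reach a mean log2 CPM of 3. Their median log2 fold change was -0.05, with 6 called higher and 11 lower. Among all 10071 genes with a known position at that level, 20.5% were called higher and 20.6% lower.

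The composition of the glucose-phosphorylating set was measured as the share of each gene in the set's summed counts per kb of merged exon within a sample, a quantity that library scaling does not touch. HK2 took 15.5%, 16.2% and 17.8% of the set in WT samples and 10.8%, 11.5% and 8.41% in METTL3-KO samples, a difference of -6.25 percentage points between means. ADPGK went from 21.1% ± 1.61 to 13.7% ± 0.663 (SD, n = 3 each), a difference of -7.40 points. HKDC1 took 25.1%, 21.5% and 27.7% in WT and 34.4%, 32.5% and 35.1% in METTL3-KO samples, a difference of 9.24 points. HK1 went from 37.6% ± 2.43 to 42.0% ± 0.691, a difference of 4.41 points. For each of the 4 genes the groups did not overlap, and each two-sided exact permutation test gave p = 0.1, the smallest that 3 samples against 3 allow. HK2 had the smallest share in every sample. HKDC1 overlapped ADPGK in WT cells and had a larger share in each METTL3-KO sample.

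The summed RNA level of the 4 genes did not follow HK2. It was 66.8, 63.0 and 72.8 CPM per kb in WT and 70.0, 67.3 and 65.2 CPM per kb in METTL3-KO samples, 67.5 ± 4.92 against 67.5 ± 2.39 (mean ± SD, n = 3 each), and the groups overlapped. The ratio of the summed level in METTL3-KO cells to that in WT cells was 0.999 with merged exons, 1.01 with the longest transcript, 0.973 with the MANE Select transcript and 0.979 without division by length. With ADPGK set aside, HK1, HK2 and HKDC1 summed to 53.3 ± 4.95 and 58.2 ± 2.40 CPM per kb, again overlapping. Among these 3 hexokinases alone, the HK2 share differed by -9.04 points, HKDC1 went from 31.3% ± 3.35 to 39.4% ± 1.80 and HK1 from 47.7% ± 3.99 to 48.7% ± 0.822, so that without ADPGK the HK1 shares overlapped (two-sided exact permutation p = 0.8). The sums above are of RNA and do not measure protein or enzyme activity. By its own assays the study reports lower hexokinase activity and lower HK2 protein in HCT116 cells after knockout or knockdown of METTL3.

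The shares depend on the length by which counts are divided, and their order changed with it while the direction of each difference did not. With the MANE Select transcript, ADPGK took 29.2% in WT and 19.5% in METTL3-KO cells and HKDC1 17.2% and 24.3%, which put ADPGK above HKDC1 in WT cells and below it in METTL3-KO cells. HK2 took 10.4% and 6.66% on that scale, and HK1 43.1% and 49.6%.

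**Figure D3:**
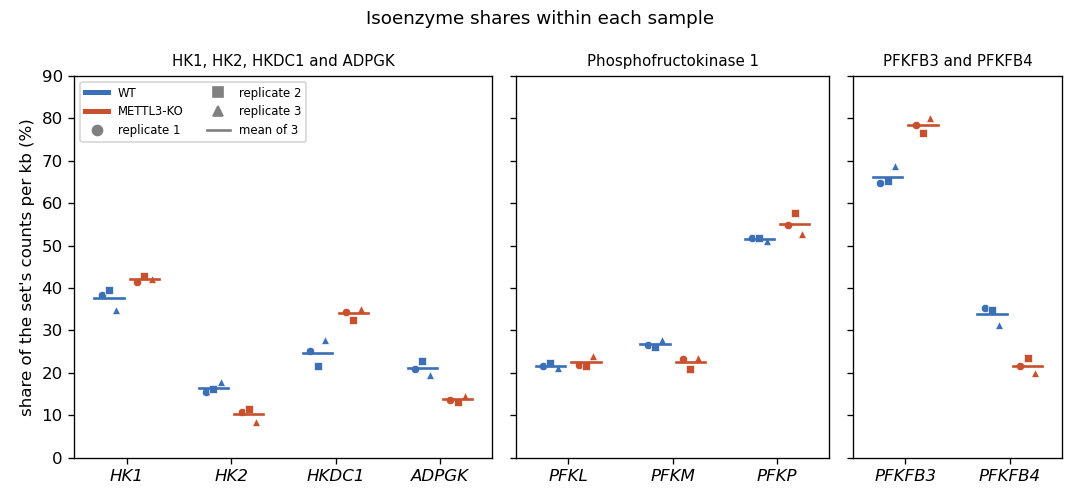
Share of each gene in the summed counts per kb of merged exon of its set (%), in each WT (blue) and METTL3-KO (red) sample, with lines at the group means. HK2, ADPGK, PFKM and PFKFB4 take a smaller share in every METTL3-KO sample, HK1, HKDC1, PFKP and PFKFB3 a larger one, and PFKL overlaps. The right-hand set is the pair PFKFB3 and PFKFB4 and leaves out PFKFB2.

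Ratios within a sample compare the response of one isoenzyme with another, and 10 pairs inside the 3 sets were computed. HK2 against HKDC1 differed most between the groups. Its log2 ratio of counts was -0.21, 0.08 and -0.15 in WT samples and -1.19, -1.01 and -1.57 in METTL3-KO samples, so the groups lay far apart relative to the spread within each. The ratio differed by -1.16 on the log2 scale, to 0.447 of its WT value. HKDC1 against ADPGK differed by 1.09, HK1 against HK2 by 0.86 and HK1 against ADPGK by 0.78 on the log2 scale, and none of these pairs overlapped between the groups. Each of these 4 pairs reached p = 0.1 in the two-sided exact permutation test, the smallest possible, or 0.143 after Benjamini-Hochberg adjustment over the 10 pairs. HK2 against ADPGK, the genes that fell, differed by -0.08 with overlapping groups (two-sided exact permutation p = 0.8, adjusted 0.8), and this value turned to 0.21 with replicate 3 of both groups left out. HK1 against HKDC1 differed by -0.30 (two-sided exact permutation p = 0.2, adjusted 0.25), with WT replicate 3 inside the METTL3-KO range, and by -0.17 without WT replicate 2.

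GPI, the isomerase between the kinase steps, fell. GPI (chromosome 19, 34850385 to 34893318, plus strand) gave 520.4, 488 and 473 CPM in WT and 383, 387 and 391 CPM in METTL3-KO samples. The METTL3-KO samples differed among themselves by a factor of 1.02 and all were below the WT samples. The METTL3-KO level was 0.784 of the WT level (95% interval 0.709 to 0.867), a log2 fold change of -0.35 (edgeR adjusted p = 0.00213, SE 0.0667), and GPI passed in all 14 alternatives. GPI has no isoenzyme, so no share was formed for this step.

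The phosphofructokinase 1 subunits rose where they changed. PFKP (chromosome 10, 3108525 to 3179910, plus strand) stood at 252, 244 and 241 CPM in WT and 286, 318 and 282 CPM in METTL3-KO samples. All METTL3-KO values were above all WT values, with replicate 2 the highest. The METTL3-KO level was 1.20 times the WT level (95% interval 1.08 to 1.34), a log2 fold change of 0.26 (edgeR adjusted p = 0.0169, SE 0.0718). The adjusted p was 0.0568 without WT replicate 2 and 0.108 without METTL3-KO replicate 2.

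PFKL (chromosome 21, 45719934 to 45747259, plus strand) gave 121, 120.4 and 114 CPM in WT and 130.0, 137 and 147 CPM in METTL3-KO samples. It rose by 0.22 on the log2 scale (edgeR adjusted p = 0.0436, SE 0.0730), the call closest to the threshold. Without any 1 sample other than WT replicate 3 its adjusted p was between 0.0558 and 0.146, and with replicate 3 of both groups left out its log2 fold change was 0.15 (adjusted p = 0.00655). PFKM (chromosome 12, 48498922 to 48540187, plus strand) had 121, 114 and 122 CPM in WT and 113, 107 and 117 CPM in METTL3-KO samples. Those ranges overlap, and PFKM did not pass in edgeR's test or in any of the 14 alternatives (log2 fold change -0.08, 95% interval -0.24 to 0.07, edgeR adjusted p = 0.441, SE 0.0708). SENP1, on the opposite strand, shares 516 bases of exon with PFKM.

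PFKP supplied most of the phosphofructokinase 1 counts per kb, with 51.8%, 51.8% and 51.1% in WT and 54.9%, 57.6% and 52.7% in METTL3-KO samples. PFKM went from 26.8% ± 0.920 to 22.5% ± 1.49 (SD, n = 3 each), a difference of -4.25 points, and PFKP one of 3.48 points, each without overlap and with a two-sided exact permutation p = 0.1. Without METTL3-KO replicate 2 the PFKP difference was 2.23 points. PFKL took 21.6% ± 0.577 and 22.4% ± 1.29, with overlapping groups (two-sided exact permutation p = 0.5). PFKM against PFKP differed by -0.34 on the log2 scale and PFKL against PFKM by 0.30, each without overlap between the groups (two-sided exact permutation p = 0.1, adjusted 0.143), while PFKL against PFKP differed by -0.04 (two-sided exact permutation p = 0.7, adjusted 0.778). The summed level of the 3 subunits was 61.3 ± 1.12 CPM per kb in WT and 69.0 ± 2.03 in METTL3-KO cells. This sum was higher in all METTL3-KO samples under each of the 4 length measures, with ratios from 1.13 to 1.14 (two-sided exact permutation p = 0.1).

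PFKFB3 and PFKFB4 changed in opposite directions. PFKFB3, whose product mainly makes fructose 2,6-bisphosphate (chromosome 10, 6186897 to 6296607, plus strand), stood at 36.3, 39.5 and 43.0 CPM in WT and 54.2, 56.5 and 46.0 CPM in METTL3-KO samples. Replicate 3 was the highest WT and the lowest METTL3-KO sample, so the groups came closest there, at 43.0 and 46.0 CPM, without overlapping. The log2 fold change was 0.40 (edgeR adjusted p = 0.00916, SE 0.0965), and the adjusted p was 0.0517 without WT replicate 1 and 0.0542 without METTL3-KO replicate 2.

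PFKFB4 (chromosome 3, 48555117 to 48599448, minus strand) had the lowest level per kb of the 10 genes and rested on 541, 476 and 417 counts in WT and 449, 378 and 268 counts in METTL3-KO samples. As CPM this was 19.7, 21.1 and 19.6 against 14.9, 17.2 and 11.4. The WT samples were close together and the METTL3-KO samples spread by a factor of 1.51, with replicate 3 the lowest. PFKFB4 fell by 0.47 on the log2 scale (edgeR adjusted p = 0.0177, SE 0.129), and the adjusted p was 0.0506 without WT replicate 1, 0.0768 without WT replicate 2 and 0.0553 without METTL3-KO replicate 1. UCN2 shares 298 bases of exon with PFKFB4 on the same strand.

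PFKFB2, at 36.3 ± 8.43 CPM in WT and 30.6 ± 4.23 CPM in METTL3-KO cells, was not counted in the pair, so the shares that follow are of PFKFB3 and PFKFB4 alone. Of the summed counts per kb of the pair, PFKFB3 took 64.8%, 65.2% and 68.7% in WT and 78.4%, 76.6% and 80.1% in METTL3-KO samples, a difference of 12.1 points (two-sided exact permutation p = 0.1). The ratio of PFKFB3 to PFKFB4 was 1.85 times as high in METTL3-KO cells, and its log2 difference of 0.89 held between 0.81 and 0.97 with any 1 sample left out. The pair summed to 9.77 ± 0.545 CPM per kb in WT and 10.9 ± 1.37 in METTL3-KO cells, with overlapping groups.

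Between genes, levels were ordered only per kb of transcript. In WT cells the order by CPM per kb of merged exon was GPI (46.2 ± 2.26), PFKP (31.6 ± 0.740), HK1 (25.3 ± 0.398), HKDC1 (16.8 ± 3.32), PFKM (16.4 ± 0.590), ADPGK (14.2 ± 0.163), PFKL (13.3 ± 0.401), HK2 (11.2 ± 1.55), PFKFB3 (6.48 ± 0.544) and PFKFB4 (3.29 ± 0.136), each as mean ± SD of 3 samples. HKDC1 and PFKM overlapped, as did PFKL and HK2, and the other neighbours did not. In METTL3-KO cells PFKP (38.0 ± 2.55) and GPI (36.3 ± 0.372) led and overlapped. HK1 and HKDC1 followed at 28.4 ± 0.829 and 22.9 ± 1.10, and PFKM and PFKL overlapped near 15.5. ADPGK (9.25 ± 0.306), PFKFB3 (8.54 ± 0.900) and HK2 (6.93 ± 1.26) came next, neighbours overlapping, with PFKFB4 last at 2.37 ± 0.478. GPI led in WT and PFKP in METTL3-KO cells also when counts were divided by the longest or the MANE Select transcript, and PFKFB3 ranked below HK2 in WT and above it in METTL3-KO cells under all 3 lengths, while the order of the genes between HK1 and HK2 changed with the length.

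The alternatives set the calls apart by how firmly they held. ADPGK, GPI and HK2 passed in all 14 alternatives, HKDC1 in 13, and PFKP, PFKFB3 and PFKFB4 in 11 each. PFKL passed in 7, HK1 in 3 and PFKM in none. The 14 include fits with a replicate block, although the replicate numbers did not pair the samples. They also include the fit without replicate 3 of both groups, in which 4823 genes were lower and 4555 higher. The tally counts these fits like the others. No gene changed direction in any alternative, as the plot of changes under all alternatives shows.

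**Figure D4:**
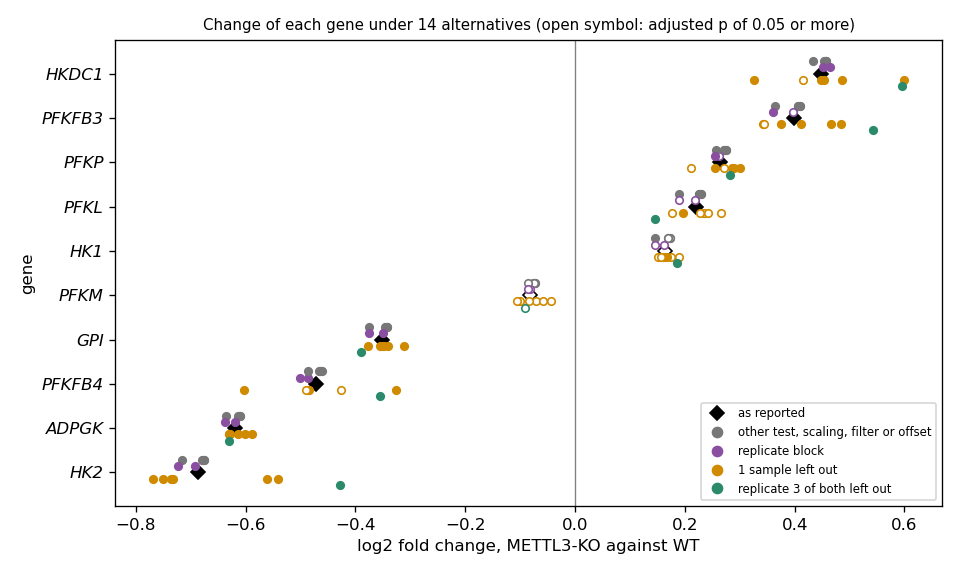
Log2 fold change of METTL3-KO against WT for each gene as reported (diamond) and under 14 alternatives (circles, coloured by kind). Open symbols have an adjusted p of 0.05 or more. HK2 moves furthest toward 0, to -0.43 with replicate 3 of both groups left out, and PFKL has the most open symbols among the genes called.

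A further list held genes that act on the same hexose phosphates without being among the 10. Of its 18 genes 14 were tested, 3 fell, none rose and 11 did not pass edgeR's test, where 13.2% of all tested genes were called lower and 13.3% higher, with a median log2 fold change of 0.001 against -0.02 over all tested genes. GCKR, the regulatory protein of glucokinase, fell by 0.73 on the log2 scale (edgeR adjusted p = 0.000996, SE 0.124), and glucokinase itself had at most 1 count in any sample. H6PD, a hexose phosphate dehydrogenase of the endoplasmic reticulum, fell by 0.48 (edgeR adjusted p = 0.000790, SE 0.0794). PFKFB2, the other bifunctional enzyme with substantial counts, lay between 31.1 and 46.0 CPM in WT and between 25.7 and 33.6 CPM in METTL3-KO samples (log2 fold change -0.24, adjusted p = 0.262 from edgeR's test), and PFKFB1 had 2 to 12 counts per sample. GFPT1, which draws fructose 6-phosphate into hexosamine synthesis, had a log2 fold change of 0.28 (adjusted p = 0.0676 from edgeR's test) and passed in 6 alternatives. PFKFB1, PFKFB2 and GFPT1 were picked after their values were seen.

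Lower glycolysis had called genes in 1 direction. Of 17 genes 14 were tested, 7 fell and none rose, where 13.2% of all tested genes were called lower and 13.3% higher. The shares were 20.6% and 20.5% among the 10071 genes with a known position and a mean log2 CPM of 3 or more. Not every gene of the list reached that level. A log2 fold change below 0 was found for 13 of the 14, and for 11630 of all 22452 tested genes, with a median of -0.24 against -0.02 over all tested genes. The largest falls were in BPGM, which makes 2,3-bisphosphoglycerate (log2 fold change -0.72), and the enolases ENO2 (-0.69) and ENO3 (-0.60). PKM, the pyruvate kinase gene, fell from 2543, 2499 and 2322 CPM to 2064, 2061 and 1991 CPM (log2 fold change -0.27, adjusted p = 0.00897 from edgeR's test), and TPI1, the triose phosphate isomerase, by 0.24 (adjusted p = 0.0478). TPI1 kept its call without WT replicate 3 but missed the threshold without any 1 of the other samples (adjusted p from 0.0701 to 0.195) and with RLE scaling (0.0535). PKM missed it without WT replicate 1, WT replicate 2 or METTL3-KO replicate 2 (adjusted p from 0.0511 to 0.0607). ENO3 was also among the study's candidates from these samples and the sequencing of m6A-carrying RNA, but not among the genes kept after real-time PCR. In upper glycolysis, by comparison, 5 of 10 genes lay below 0 and 5 above, and no test of the difference between the lists was made. The number of lower glycolysis genes that fell was 3 without WT replicate 1 or WT replicate 2 and 4 without METTL3-KO replicate 1 or METTL3-KO replicate 2.

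**Figure D5:**
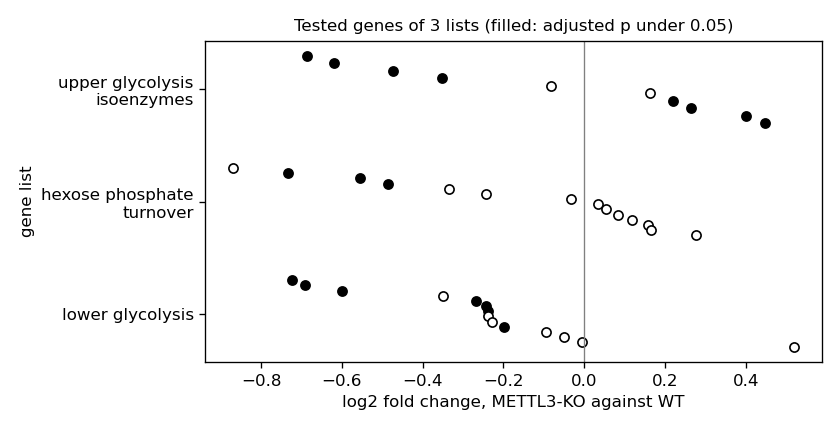
Log2 fold change of METTL3-KO against WT for the tested genes of 3 lists, 1 point per gene, filled where the adjusted p is under 0.05. The upper glycolysis isoenzymes fall on both sides of 0 with 4 called on each side, the hexose phosphate turnover genes have 3 called, all lower, and the lower glycolysis genes 7 called, all lower.

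The genes whose log2 CPM followed HK2 most closely over the 6 samples, among 10377 others that reach a mean log2 CPM of 3, were TFRC, the transferrin receptor (Pearson r = 0.9956), ZNF75D, a zinc finger protein (r = 0.9947), and METTL4, another member of the METTL family of methyltransferases (r = 0.9945). Their log2 fold changes were -0.54, -0.44 and -0.28. These values describe 6 samples and carry no p. They reflect the contrast together with the deviations of replicate 3, which for HK2 were upward in WT (0.34) and downward in METTL3-KO cells (-0.48).

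In sequence, the longest transcripts of all of the 10 genes except ADPGK held more GGAC per kb than the median tested gene. The longest transcript of HKDC1 held 36 occurrences, or 9.85 per kb, more than 98.2% of the 17298 tested genes with a transcript, and PFKFB4 held 7.43 per kb (percentile 93.0). HK1, HK2, PFKFB3 and PFKP held 6.75, 6.58, 6.41 and 6.13 per kb (percentiles from 84.3 to 89). GPI held 5.07 (percentile 73), PFKL 4.33 (62.8), PFKM 4.19 (60.9) and ADPGK 3.06 (40.1), against a median of 3.55 over the tested genes. The tested genes were not matched to the 10 for GC content or limited to coding transcripts. In the longest transcripts the density thus ran from 3.06 (ADPGK) to 7.43 per kb (PFKFB4) among genes that fell. Among those that rose it ran from 4.33 (PFKL) to 9.85 per kb (HKDC1). These ranges depend on the transcript taken. With the MANE Select transcript they were 4.22 (ADPGK) to 7.43 (PFKFB4) and 6.47 (PFKFB3) to 9.85 per kb (HKDC1), with PFKL at 6.54. By region of the MANE Select transcript, HK2 held 4 of its 37 occurrences in the 5′UTR, 25 in the coding sequence and 8 in the 3′UTR, while HK1 held 1 and HKDC1 held 3 in the 3′UTR. PFKFB3 and PFKFB4 held 16 and 12 in 3′UTRs of 2590 and 2063 bases. A letter match is a description of the sequence and not an m6A site.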

How the data were processed

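RNA-seq counts of 3 WT and 3 METTL3-KO HCT116 samples were analysed. Read pairs were aligned by the authors with TopHat 2.0.11 (per the submitters' processing notes) to hg19, and htseq-count in union mode assigned them to genes. The authors deposited the raw counts of each gene symbol without normalization. Reads on several genes (7.95% to 8.77%), on none (6.03% to 9.08%) or not aligned uniquely (13.4% to 14.7%, each relative to the counts on genes plus the unassigned) were deposited as separate totals and left out of library sizes and tests. Both extremes of reads on no gene were replicate 3 samples, the highest in WT and the lowest in METTL3-KO cells. WT replicate 3 also had the lowest percentage of reads on several genes. Whether strand was used in counting is not given in the sources used here.

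A gene was tested if its counts reached 5 in total in at least 1 condition, a minimum taken from the study's methods. METTL3-KO was compared with WT by edgeR's quasi-likelihood test (edgeR 4.0.16, R 4.3.3), TMM, two-sided, adjusted after Benjamini and Hochberg over 22452 genes. The SE is the size of the log2 fold change over the square root of F. Shares used counts per kb, and shares and ratios were compared by exact permutation tests. Lengths, positions and sequences came from GENCODE on GRCh37, which matched 35800 of 56638 symbols, older symbols included. The study's methods name an Ensembl annotation of GRCh37, so the exons counted may differ from those whose lengths were used for values per kb. The common biological coefficient of variation was 0.0907.

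Alternatives were DESeq2 1.42.0, RLE, filterByExpr, a filter of only 1 count, a replicate block, a length and GC offset (splines with 5 degrees of freedom), each sample left out, and replicate 3 of both groups left out. Division by MANE Select length and the hexokinase set without ADPGK were added after seeing the data. The members and lists were chosen with earlier results of these data known. Named genes were METTL3, the members, at most 5 called genes per other list with the largest change, the 3 genes most like HK2 and the cell type markers. One gene that this rule names is not reported here. The procedure was tested on simulated data.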

Additional observations from a re-analysis of the deposited data

How the results depend on the processing

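The replicate numbers did not pair the samples: the deviations of same-numbered samples from their group means correlated at -0.584, -0.392 and -0.783 across genes, and the deposited tables carry other numbers than the labels. With the replicate block 1719 genes were lower and 1810 higher, 1 member was higher in place of 4 and 3 lower glycolysis genes were lower in place of 7. PFKL (0.22, adjusted p = 0.190 from edgeR's test), PFKP (0.26, adjusted p = 0.112) and PFKFB3 (0.40, adjusted p = 0.0587) then missed the threshold, as did PKM (-0.27, adjusted p = 0.0932) and TPI1 (-0.24, adjusted p = 0.186), and PFKL did so at 0.19 (adjusted p = 0.0726) with the block and the length and GC offset together. With the length and GC offset alone HK1 passed at 0.15. With replicate 3 of both groups left out, 4823 genes were lower and 4555 higher, HK1 passed at 0.19, the HK2 share changed by -4.67 points, the PFKL share by -0.25 points, HK1/HK2 by 0.61 and HK2/ADPGK by 0.21 on the log2 scale. One hexose phosphate turnover gene, GFPT1, was higher with DESeq2, with no filter beyond 1 count, with the length and GC offset with or without the block, and with replicate 3 of both groups left out. Shares changed by 6.21 points (HK1) without division by length, and by 6.43 (HK1), -3.78 (HK2) and -9.69 points (ADPGK) with the MANE Select length.

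With 1 sample left out, between 1976 and 3793 genes were lower and between 2188 and 3809 higher, and the members counted 3 to 4 lower and 1 to 5 higher. Lower glycolysis genes that fell numbered 3 to 9 and hexose phosphate turnover genes that rose 0 to 1. The log2 fold changes ran from 0.15 to 0.19 (HK1), 0.33 to 0.60 (HKDC1), 0.18 to 0.26 (PFKL), 0.21 to 0.30 (PFKP), 0.34 to 0.48 (PFKFB3) and -0.60 to -0.33 (PFKFB4). HK2/ADPGK ran from -0.20 to 0.10, PFKL/PFKP from -0.12 to 0.014 and HK1/HKDC1 from -0.44 to -0.17, and the PFKP and PFKL shares from 2.23 to 4.67 and from 0.026 to 1.17 points. The cause of these shifts was not tested. The directions of the 4 hexokinase and ADPGK shares, of both PFKFB shares and of the PFKM and PFKP shares were the same in every alternative run. With 3 samples a group, shares and ratios could not reach an exact p under 0.1, so their tests do not bear on stability.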
